A study of Mus musculus with 2 samples.

Results

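The colony-stimulating factors and their receptors were followed across the leukocytes of a mouse tumour. The set holds 8 genes, chosen by symbol, of the 22836 genes in the table, and all 8 were present. The ligands are Csf1 (M-CSF), Csf2 (GM-CSF) and Csf3 (G-CSF). The receptor chains are Csf1r, Csf2ra, Csf2rb, Csf3r and Flt3.

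The cells were CD45+ leukocytes taken from Colon26 tumours, a mouse colon carcinoma line, that had been grown under the skin of the right flank of wild-type BALB/c mice. The labels name the cells' source as intestinal, although the tumours were subcutaneous. The minP1 group (4 mice) received 0.08 µg of minP1, an immunostimulatory peptide derived from the nuclear protein HMGN1, into the peritoneum on day 9. The PDL1 group (3 mice) received 200 µg of an antibody to PD-L1, clone 10F.9G2, into the peritoneum on days 4 and 8. The minP1_PDL1 group (4 mice) received both, and the Control group (3 mice) received neither. All 14 tumours were taken on day 10 and enriched for leukocytes on Percoll, so that every group shares the strain, the tumour line, the age of the tumour and the enrichment.

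Colony-stimulating factors are secreted proteins that keep myeloid cells alive and drive their growth and maturation. M-CSF acts through the receptor tyrosine kinase CSF1R on monocytes and macrophages, and FLT3, a kinase of the same family, is the receptor that dendritic cell precursors depend on. GM-CSF binds the specific chain encoded by Csf2ra and signals through the beta chain encoded by Csf2rb, which interleukin-3 and interleukin-5 receptors also use, while G-CSF acts on neutrophils through the receptor encoded by Csf3r.

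After filtering, 7732 cells remained, between 466 and 724 from each mouse, with 26007834 to 51230461 reads a mouse and a median of 39132 reads a cell. No cell barcode was shared between mice (0 shared). Clustering without the 8 genes gave 23 clusters, whose names come from marker genes and are marked as alike, not as proven types. T cell-like clusters held 1814 cells, NK cell-like clusters 1489, monocyte and macrophage-like clusters 2491, dendritic cell-like clusters 496, a neutrophil-like cluster 578 and a cluster with mast cell and basophil genes 93. Another 547 cells fell into non-immune clusters, of which 493 carried stromal markers (5 of the 7 measured) with Ptprc, the gene for CD45, at 57.0 CPM (reads of the gene per 10 to the sixth reads), against 3117 CPM in the largest NK cell-like cluster. A further 54 carried epithelial markers. These 547 cells are left out wherever "immune cells" are named. A score from simulated doublets was above 0.5 in 26.4% of the kept cells. The share was 65.7% in the macrophage-like cluster led by Ccl8 and 64.7% in that with Mmp12 and Arg1. It was 39.3% in the monocyte-like, 35.6% in the neutrophil-like, 51.2% in the plasmacytoid and 46.2% in the mast cell and basophil cluster. The epithelial-marker cluster had 96.3% and the B cell-like cluster 100%, against 12.0% of stromal-marker cells and 3.99% of the largest NK cell-like cluster. The shares of 2 cell classes had different means between groups, a difference that was not tested: neutrophils were 5.93 ± 1.56% of cells with minP1, 10.6 ± 1.79% with PDL1, 9.96 ± 2.22% with minP1_PDL1 and 3.63 ± 0.872% in Control (SD over mice). Non-immune cells were 4.74 ± 1.85%, 7.88 ± 5.94%, 6.41 ± 3.53% and 11.1 ± 2.57% of cells in the same order of groups. In values summed over mixed cells, a change in the number of cells of a type and a change in RNA per cell cannot be told apart.

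The promoters of Csf1 and Csf3r, the 2 members that DESeq2 called between groups, are shown for reference, together with that of Flt3, whose window held none of the motifs searched. They run 5′ to 3′ from 250 bases before to 50 bases after the start of the gene and come from RefSeq (GRCm38.p6), which gave a promoter for 5 of the 8 members. Csf1 lies at chr3:107760420-107760719 on the minus strand, Csf3r at chr4:126024409-126024708 on the plus strand and Flt3 at chr5:147400440-147400739 on the minus strand. Capitals mark matches, on either strand, to the PU.1 core GAGGAA, the C/EBP motif TTNNGNAA, the AP-1 motif TGANTCA or the NF-kB motif GGGNNNNNCC.
Csf1: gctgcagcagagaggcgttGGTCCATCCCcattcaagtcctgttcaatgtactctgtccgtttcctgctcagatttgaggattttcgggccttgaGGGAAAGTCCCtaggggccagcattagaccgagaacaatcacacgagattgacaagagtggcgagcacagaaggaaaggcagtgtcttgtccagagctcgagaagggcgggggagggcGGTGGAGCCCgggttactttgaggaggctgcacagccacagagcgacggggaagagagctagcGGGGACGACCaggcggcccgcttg
Csf3r: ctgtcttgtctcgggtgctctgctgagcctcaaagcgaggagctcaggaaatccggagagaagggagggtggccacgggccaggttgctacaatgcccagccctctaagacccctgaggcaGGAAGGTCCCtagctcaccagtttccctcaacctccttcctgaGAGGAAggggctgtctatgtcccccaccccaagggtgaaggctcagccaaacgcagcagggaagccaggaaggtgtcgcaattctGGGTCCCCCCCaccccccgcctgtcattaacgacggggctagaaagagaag
Flt3: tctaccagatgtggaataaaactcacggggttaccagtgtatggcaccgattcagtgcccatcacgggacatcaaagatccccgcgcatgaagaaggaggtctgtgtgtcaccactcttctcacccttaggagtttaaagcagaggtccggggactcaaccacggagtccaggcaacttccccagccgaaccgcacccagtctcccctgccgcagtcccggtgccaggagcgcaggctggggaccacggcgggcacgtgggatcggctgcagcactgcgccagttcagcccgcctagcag
The Csf1 window held 5 NF-kB matches, of which the pair in GGGAAAGTCC and GGAAAGTCCC overlap on opposite strands, and no match to the other 3 motifs. The Csf3r window held 1 PU.1 match and 3 NF-kB matches, the last pair overlapping. Among 32851 promoter windows of 300 bases, the NF-kB motif was found in 50.8%, the C/EBP motif in 40.7%, the PU.1 core in 28.3% and the AP-1 motif in 7.81%. A match is a description of the letters and carries no measurement of binding.

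**Figure D1:**
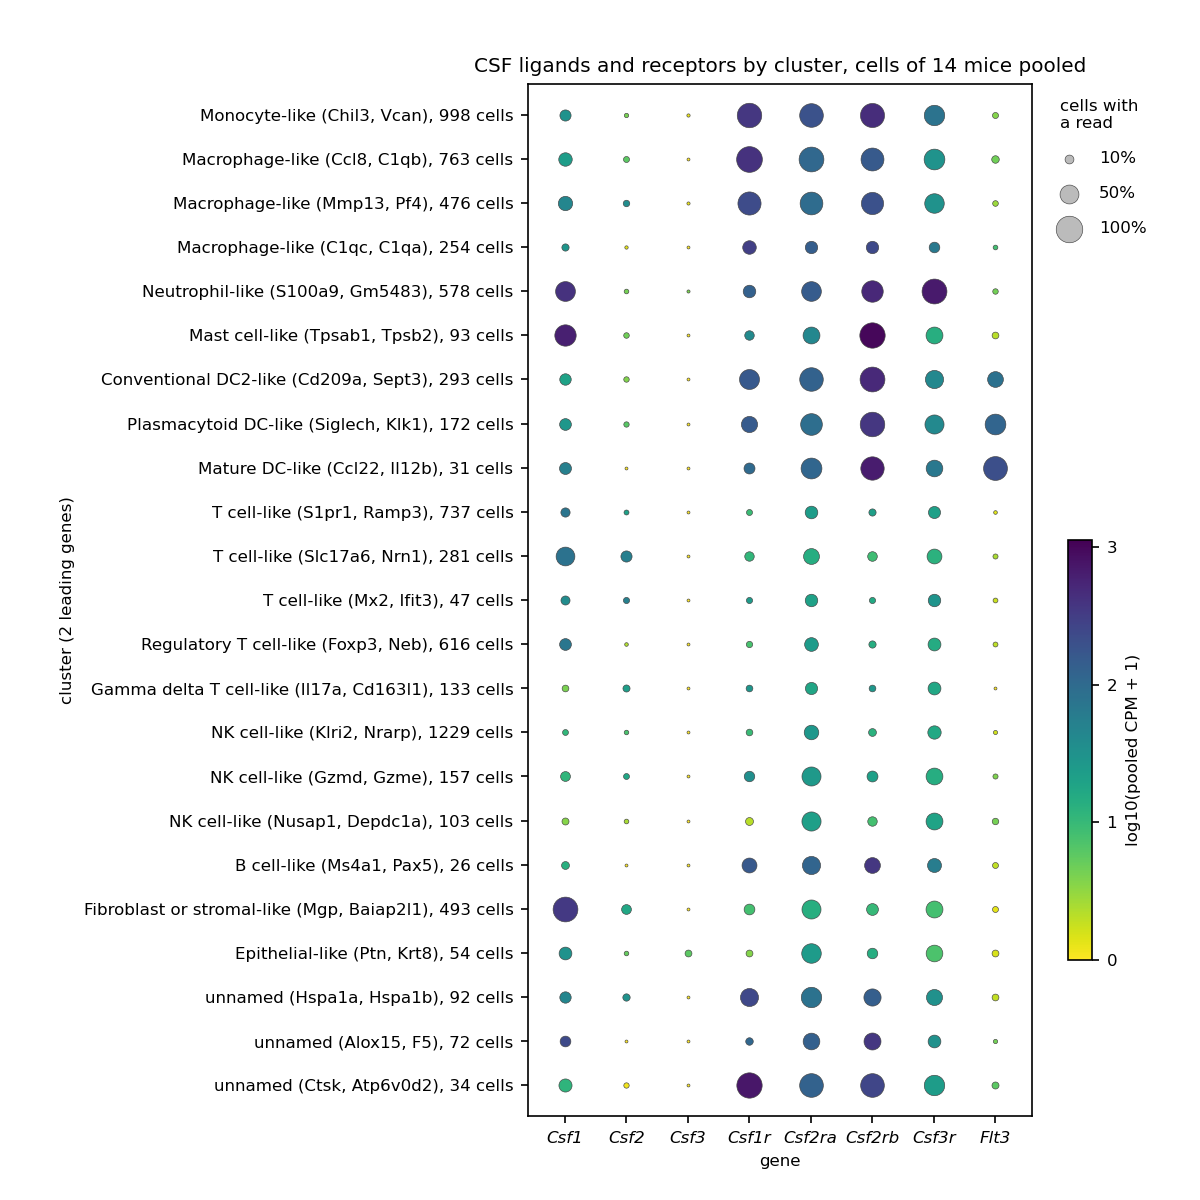
The 8 genes (columns) in the 23 clusters (rows): dot area gives the percentage of cells with at least 1 read, and colour gives log10(pooled CPM + 1), cells of 14 mice pooled. Csf1r spreads over the monocyte and macrophage-like clusters, Csf3r peaks in the neutrophil-like cluster, Flt3 in the dendritic cell-like clusters, and Csf1 in the mast cell and basophil, neutrophil and stromal-marker clusters.

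Csf1, the main growth factor of macrophages, was read in 3 unlike places. Its highest cluster level was 598 CPM, in the mast cell and basophil cluster, followed by 414 CPM in the neutrophil-like cluster and 352 CPM in the stromal-marker cluster. Over mice, the neutrophil-like level was 412 ± 169 CPM and the stromal-marker level 344 ± 52.4 CPM (SD, n = 14 mice each), so that these neighbours in the order did not differ beyond their spread. Neutrophils with a doublet score of 0.5 or less had 850 ± 391 CPM of Csf1. Of all Csf1 reads in this CD45+ preparation, the stromal-marker cluster alone supplied 52.4%, neutrophils 15.8% and the 93 mast cells and basophils 7.27%. These shares describe the cells as prepared, in which cells low in Ptprc were a remainder, and not the whole tumour. Whether the stromal-marker cells were tumour cells or stroma was not tested. T cells held 69.8 ± 25.2 CPM, monocytes and macrophages 29.4 ± 7.64 CPM and NK cells 9.21 ± 8.66 CPM (SD, n = 14 mice each). The cells that carry the M-CSF receptor thus read their own ligand at a level well below that of neutrophils and stromal-marker cells. Among T cell-like clusters the level was 81.8 ± 34.1 CPM in the one with Cd8a and Pdcd1 among its leading genes, 74.3 ± 55.1 CPM in the one with Tcf7 and Il7r and 69.7 ± 37.9 CPM in the regulatory T cell-like one, which is within their spread. An unnamed cluster of 72 cells led by Alox15 had 229 CPM of Csf1, from 11 cells with a read. Il34, which encodes the other ligand of the M-CSF receptor, reached 11.0 CPM in the stromal-marker cluster, where 18.9% of cells had a read.

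Counted cell by cell, Csf1 was read in most stromal-marker cells and in a part of the neutrophils. A read was found in 87.2% of stromal-marker cells at a median depth of 148345 reads a cell, with quartiles of 137 and 534 CPM among cells with a read. Neutrophils with a low doublet score had a read in 198 of 372 cells (53.2%) at a median depth of 11708 reads, with a median of 1389 CPM among those cells. Neutrophils with a high score had a read in 121 of 206 cells (58.7%) but a median of only 271 CPM. NK cells, taken as a population that should hold little of the gene, had a read in 4.84% (72 of 1489 cells, 95% exact binomial interval 3.80 to 6.05%) at a median depth of 27466 reads. After thinning each cell to 10000 reads, which 463 of 578 neutrophils, 519 of 547 non-immune cells and 1419 of 1489 NK cells could supply, the shares with a Csf1 read were 51.4%, 69.4% and 2.89%.

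The mast cell and basophil cluster held 2 kinds of cell with different Csf1 levels. Of its 93 cells, 22 had more reads of the basophil genes Mcpt8, Prss34 and Cd200r3 than of the mast cell genes Cma1, Mcpt4, Tpsb2 and Tpsab1, and 71 had the reverse. No cell (0) lay within 2-fold of that cut, which was chosen after the cluster was seen. All 22 basophil-gene cells, from 11 mice, had Csf1 reads, with a pooled level of 3278 CPM. The 71 mast-gene cells had Csf1 reads in 38 cells (53.5%) and a pooled level of 224 CPM. The median among cells with a read was 4486 CPM in basophil-gene cells, with quartiles of 1790 and 8603 CPM, and 273 CPM in mast-gene cells. This was the highest per-cell Csf1 level of the populations examined. Csf2rb did not separate the 2 kinds of cell, at 1036 CPM in basophil-gene cells and 989 CPM in mast-gene cells.

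**Figure D2:**
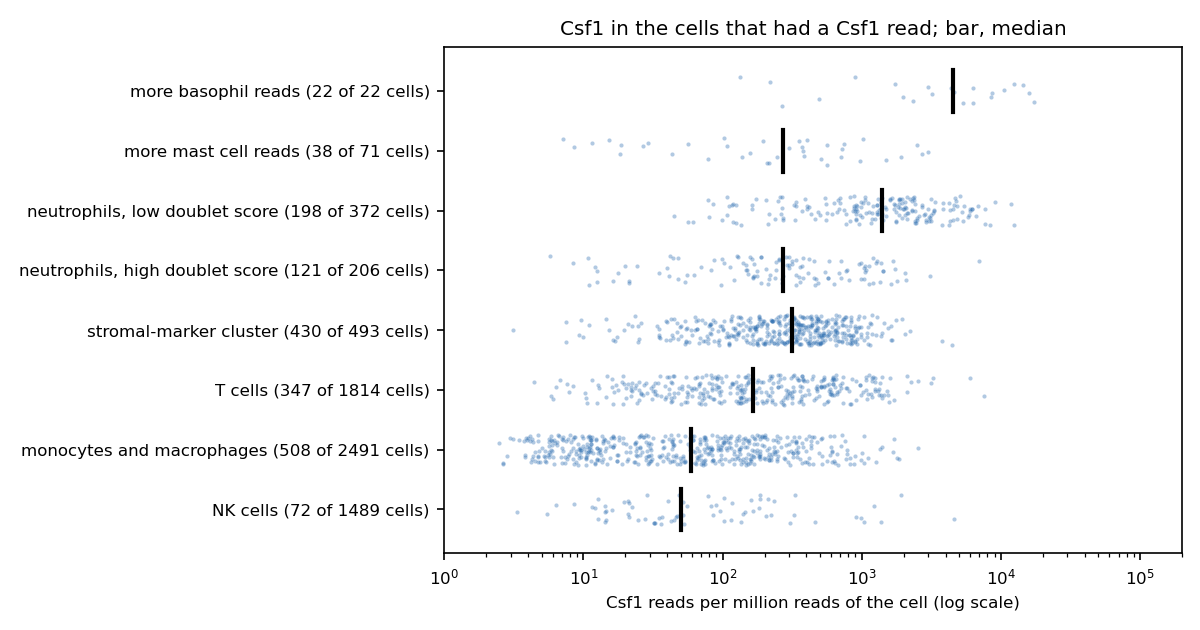
Csf1 in single cells: each row is a cell population, each point a cell with at least 1 Csf1 read, the x axis its Csf1 CPM on a log scale, and the bar the median. Basophil-gene cells have the highest median, 4486 CPM, followed by neutrophils with a low doublet score at 1389 CPM, while T cells sit at 164 CPM and NK cells at 50.4 CPM.

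Between groups, Csf1 over all CD45+ cells was lowest after minP1 alone. The 4 minP1 mice had 71.3, 73.8, 79.8 and 74.8 CPM, the 3 PDL1 mice 125, 88.9 and 110 CPM, the 4 minP1_PDL1 mice 130, 107, 88.3 and 108 CPM, and the 3 Control mice 131, 101 and 150 CPM. Every minP1 mouse lay below every mouse of the other groups, while PDL1 and minP1_PDL1 mice overlapped Control mice. The log2 difference from Control was −0.75 (SE 0.15) for minP1, with an edgeR adjusted p of 0.564, and DESeq2 gave −0.76 with an adjusted p of 0.00539. In edgeR this contrast called 0% of the 18410 genes tested at an adjusted p under 0.05 and 6.94% at an unadjusted p under 0.05, and in DESeq2 it called 0.207% of genes. The log2 difference of minP1_PDL1 from minP1 was 0.53 (SE 0.14, edgeR adjusted p 0.596). The difference between the effect of minP1 with and without the antibody was 0.77 (SE 0.21, edgeR adjusted p 1.000).

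The stromal-marker cells moved with that result. Summed over 7 stromal markers, the level in all CD45+ cells ranged over 194–478 CPM with minP1, 209–753 CPM with PDL1, 197–567 CPM with minP1_PDL1 and 695–889 CPM in Control, and 0 of 7 markers stood above the Control mean in any treated group. Of the Csf1 CPM over all cells, non-immune cells supplied 31.0 ± 5.56 with minP1, 50.7 ± 37.0 with PDL1, 43.9 ± 20.6 with minP1_PDL1 and 96.8 ± 24.7 in Control (SD over mice). Neutrophils supplied 15.3, 21.0, 22.4 and 6.49 CPM in the same order. The order of the groups therefore depended on the cells counted. Without the non-immune clusters, Csf1 was 41.3, 47.0, 60.6 and 48.6 CPM in minP1 mice, 49.9, 77.5 and 74.7 CPM in PDL1 mice, 78.4, 77.5, 72.5 and 72.8 CPM in minP1_PDL1 mice, and 24.4, 39.3 and 56.8 CPM in Control mice. All 4 minP1_PDL1 mice stood above all 3 Control mice and all 4 minP1 mice, and Control mice overlapped the minP1 and PDL1 mice. The log2 difference of minP1_PDL1 from Control was 0.90 (SE 0.24), with an adjusted p of 0.340 in edgeR and 0.0272 in DESeq2. That of PDL1 from Control was 0.74 (SE 0.25, edgeR adjusted p 0.788), or 0.47 without Control_1, and that of minP1_PDL1 from minP1 was 0.60 (SE 0.22, edgeR adjusted p 0.552). How far cell numbers account for either pattern was not tested.

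**Figure D3:**
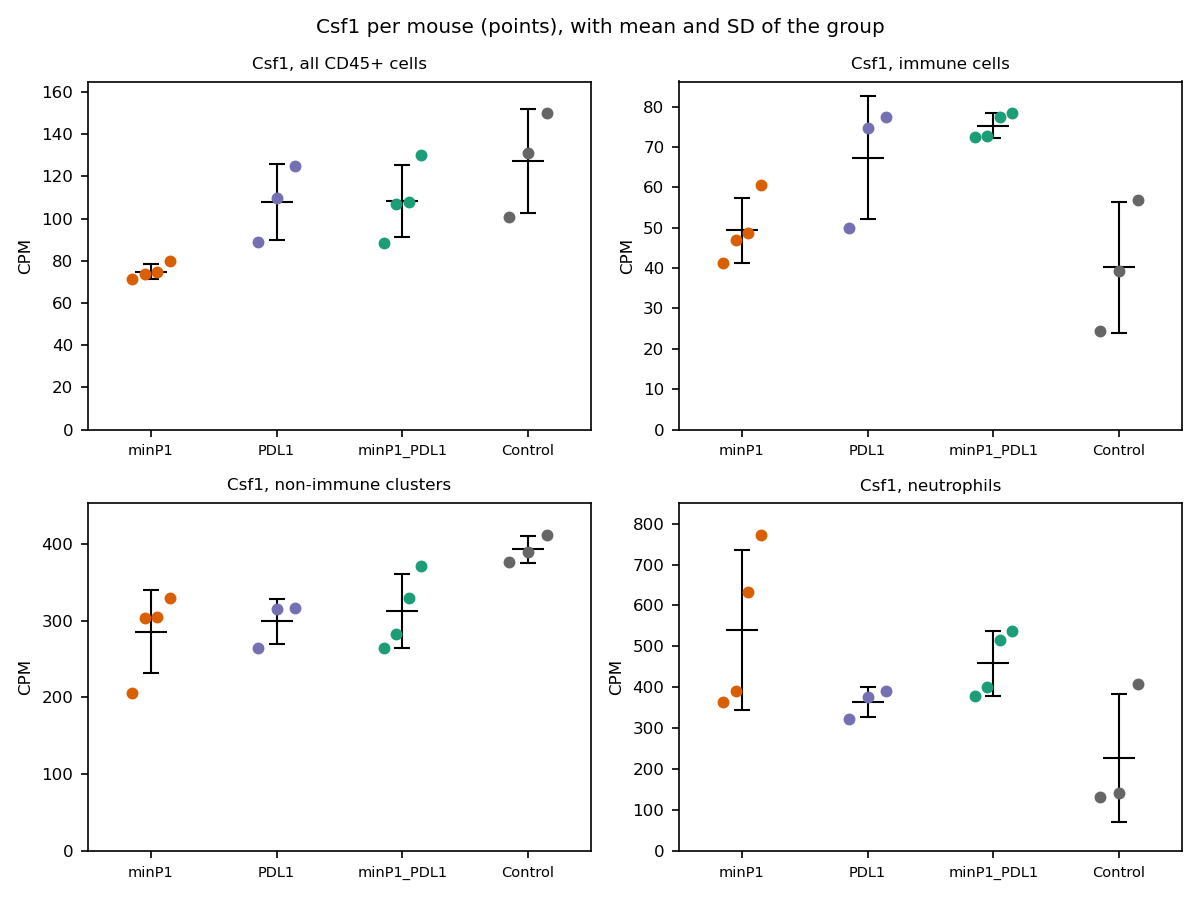
Csf1 CPM per mouse (points) with the group mean and SD (bars), in all CD45+ cells, immune cells, non-immune clusters and neutrophils, with the groups minP1, PDL1, minP1_PDL1 and Control from left to right. Over all cells the minP1 mice are lowest (71.3 to 79.8 CPM), and over immune cells the minP1_PDL1 mice (72.5 to 78.4 CPM) lie above the Control mice (24.4 to 56.8 CPM).

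Within cell classes, Csf1 in the non-immune clusters was 206 to 329 CPM in the 4 minP1 mice, 317, 265 and 315 CPM in PDL1 mice, 283, 330, 264 and 371 CPM in minP1_PDL1 mice, and 389, 377 and 412 CPM in Control mice. All 11 treated mice lay below all 3 Control mice, with a log2 difference of −0.45 for minP1 (SE 0.17, edgeR adjusted p 1.000) and an interaction of 0.52 (SE 0.24, edgeR adjusted p 1.000). In neutrophils the values were 391, 773, 632 and 365 CPM in minP1 mice, 377, 322 and 391 CPM in PDL1 mice, 516, 538, 402 and 379 CPM in minP1_PDL1 mice, and 142, 131 and 407 CPM in Control mice. Control_3 lay within the treated range and the other 2 Control mice below it. The log2 difference from Control in neutrophils was 1.27 for minP1 (SE 0.39, edgeR adjusted p 0.513) and 1.09 for minP1_PDL1 (SE 0.38, edgeR adjusted p 0.562). The neutrophil markers moved with this contrast: the summed level of 9 of them in the cluster was 17360–18331 CPM with minP1, 11210–19544 CPM with PDL1, 18915–26280 CPM with minP1_PDL1 and 7653–16285 CPM in Control, and their part in the result was not tested. Without Control_3 the log2 differences were 2.05 for minP1 and 1.86 for minP1_PDL1. With cells of a doublet score over 0.5 left out, 8 to 13 neutrophils a Control mouse remained. The fit left out any mouse with under 10 of them, including the Control mouse with 8. Its log2 differences, from fewer Control mice, were 0.42 for minP1 and 0.55 for minP1_PDL1. Over all mice, the low-score means were 956 CPM with minP1 (529 to 1683) and 974 CPM with minP1_PDL1 (850 to 1073). In Control the mean was 449 CPM (183 to 720). In monocytes and macrophages Csf1 was 18.7, 24.5, 23.2 and 29.0 CPM in minP1 mice, 29.6, 44.0 and 34.6 CPM in PDL1 mice, 32.1, 36.4, 39.4 and 26.9 CPM in minP1_PDL1 mice, and 16.5, 31.1 and 25.8 CPM in Control mice. The groups overlapped, with log2 differences of 0.54 for PDL1 against Control (SE 0.25, edgeR adjusted p 0.881), or 0.33 without Control_1, and 0.49 for minP1_PDL1 against minP1 (SE 0.21, edgeR adjusted p 0.672).

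**Figure D4:**
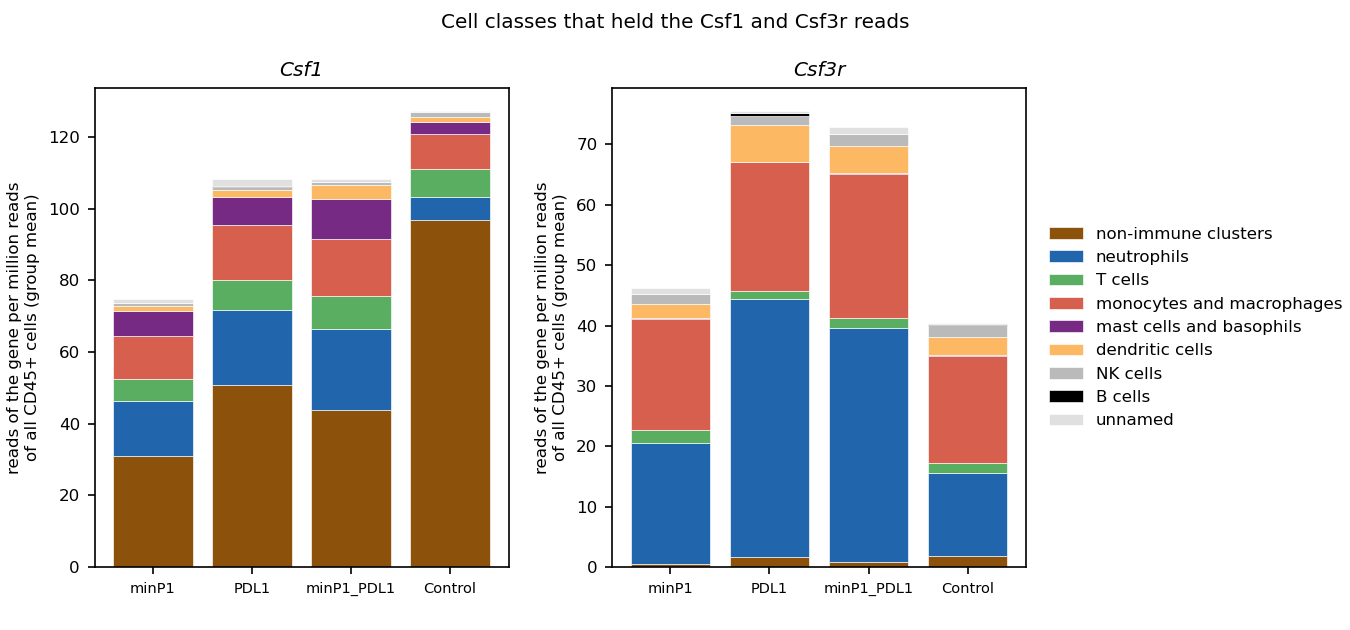
What each cell class supplies to the CPM of a gene over all CD45+ cells: stacked bars give group means over mice, with the groups minP1, PDL1, minP1_PDL1 and Control from left to right. Non-immune cells supply 31.0 CPM of Csf1 with minP1 and 96.8 CPM in Control, and neutrophils supply 20.1 CPM of Csf3r with minP1, 42.8 CPM with PDL1, 38.8 CPM with minP1_PDL1 and 13.7 CPM in Control.

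Csf2, which activated T cells are known to secrete, was sparse. The largest number of cells with a read, 78, were T cells, then 69 monocytes and macrophages, 63 non-immune cells and 30 NK cells. A read was found in 4.30% of T cells (95% exact binomial interval 3.41 to 5.34%), 2.77% of monocytes and macrophages, 11.5% of non-immune cells and 1.90% of neutrophils, at median depths of 20623, 74680, 143141 and 15892 reads. Thinned to 10000 reads a cell, the shares were 3.53%, 1.30%, 5.01% and 1.30% in that order. Of all Csf2 reads, monocytes and macrophages held 40.5%, T cells 24.8% and non-immune cells 20.4%. With cells of a doublet score over 0.5 left out, the level over mice was 1.46 ± 2.93 CPM in monocytes and macrophages, against 8.91 ± 14.4 CPM with them, and 29.0 ± 21.7 CPM in T cells, against 27.4 ± 18.2 CPM. The level was highest in the T cell-like cluster with Cd8a and Pdcd1, at 54.8 CPM pooled and 52.5 ± 54.1 CPM over mice, with a read in 47 cells (16.7%). The next pooled level was 52.6 CPM, in a T cell-like cluster led by Mx2 and Ifit3 with only 2 cells with a read. The Mmp12 and Arg1 macrophage-like cluster had 36.2 CPM, and an unnamed cluster led by Hspa1a had 31.2 CPM from 6 cells. Gamma delta T cell-like cells had 21.8 CPM and the Tcf7 and Il7r cluster 19.8 CPM. An NK cell-like cluster led by Gzmd had 16.7 CPM and stromal-marker cells 16.0 CPM. A few cells carried much of the signal, since the 5 cells with most Csf2 reads held 30.5% of them. The largest was a cell of the Mmp12 and Arg1 macrophage-like cluster in mouse minP1_4, with 1243 Csf2 reads of its 289098 reads and a doublet score of 0.740.

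Csf2 over all CD45+ cells was 4.19, 3.81, 7.46 and 35.1 CPM in minP1 mice, 7.73, 14.2 and 9.42 CPM in PDL1 mice, 13.2, 13.8, 6.31 and 7.77 CPM in minP1_PDL1 mice, and 19.6, 16.4 and 5.84 CPM in Control mice. Without that 1 cell, minP1_4 stood at 7.33 CPM, among the other minP1 mice. In T cells the values were 18.5, 4.44, 21.7 and 14.3 CPM in minP1 mice, 9.87, 33.0 and 28.2 CPM in PDL1 mice, 24.2, 30.6, 16.9 and 59.6 CPM in minP1_PDL1 mice, and 69.6, 36.0 and 16.0 CPM in Control mice. Control_3 lay within the minP1 range and the other 2 Control mice above it, with a log2 difference of −1.45 for minP1 (SE 0.60, edgeR adjusted p 1.00) and an interaction of 1.91 (SE 0.86, edgeR adjusted p 1.000). Without Control_1 these were −0.81 and 1.27. In monocytes and macrophages Csf2 was 2.45, 3.59, 5.51 and 56.3 CPM in minP1 mice, 0.408, 1.25 and 0.861 CPM in PDL1 mice, 17.7, 3.47, 6.47 and 2.31 CPM in minP1_PDL1 mice, and 7.96, 9.96 and 6.46 CPM in Control mice. All 3 PDL1 mice lay below all Control mice, at a log2 difference of −3.30 (SE 1.15, edgeR adjusted p 0.881), and below all minP1_PDL1 mice, which differed from PDL1 by 3.19 (SE 1.11, edgeR adjusted p 0.760). Without cells of a high doublet score, the first of these differences was 2.16 (SE 2.09, edgeR adjusted p 0.931), of the opposite sign.

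Csf3, the neutrophil growth factor, was close to absent. In all, 8 cells held its 117 reads, and 61 of those reads were in 1 cell of the neutrophil-like cluster of minP1_1. That cell had a doublet score of 0.6. The other 7 cells held 1 to 17 reads each, of which 3 cells lay in the epithelial-marker cluster and 4 among monocytes and macrophages. With cells of a doublet score over 0.5 left out, the mean over mice fell from 0.256 to 0.00387 CPM in all CD45+ cells. It was then 0 CPM in neutrophils and in the non-immune clusters, so the cell type behind these reads is uncertain. The level over all CD45+ cells was 2.20, 0.0232, 0.157 and 0 CPM in minP1 mice, 0, 0.807 and 0 CPM in PDL1 mice, 0 CPM in all 4 minP1_PDL1 mice, and 0, 0.0586 and 0.336 CPM in Control mice. Mice of every group were at 0, and no fold change is given, although the contrast of minP1_PDL1 with minP1 had an unadjusted p under 0.05 in edgeR (adjusted p 0.787). Where the filter on low counts left a member out, an exact 2-sided permutation test over mice was used. It gave an unadjusted p under 0.05 in 0 of 55 comparisons, but a part of these could not have passed. For PDL1 against Control, with 3 mice in each group, the smallest p that this test can give lies above 0.05. In T cells, NK cells and dendritic cells Csf3 was 0 CPM in every mouse, so no contrast of it there could pass. The count therefore does not show that the groups were alike.

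Csf1r, the M-CSF receptor and a marker of the macrophage lineage, was read mainly in monocytes and macrophages, which held 82.6% of its reads. Its level was 388 ± 59.4 CPM in the macrophage-like cluster led by Ccl8 and complement C1q genes, 366 ± 54.7 CPM in the Chil3 and Vcan monocyte-like cluster and 234 ± 52.9 CPM in the Mmp12 and Arg1 macrophage-like cluster (SD over mice). The first pair overlapped in spread, and the Mmp12 and Arg1 cluster lay below both. A cluster of 34 cells led by Ctsk and Acp5, genes of bone-resorbing cells, had the highest pooled level, 733 CPM, with a read in 91.2% of cells, and 91.2% of its cells had a high doublet score. Conventional dendritic cell-like cells had 169 ± 63.1 CPM, plasmacytoid ones 169 ± 104 CPM and neutrophils 133 ± 53.4 CPM. A Csf1r read was found in 80.0% of monocytes and macrophages (72.0% when thinned to 10000 reads) at a median depth of 74680 reads, against 5.46% of T cells (2.99% when thinned) at 20623 reads. In neutrophils 18.9% of cells carried both Csf1r and Csf3r, and the product of the 2 shares was 18.9%.

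Csf1r did not separate the groups in its main class. Monocytes and macrophages had 391, 368, 347 and 419 CPM in minP1 mice, 408, 323 and 291 CPM in PDL1 mice, 299, 271, 330 and 383 CPM in minP1_PDL1 mice, and 347, 380 and 315 CPM in Control mice, and the groups overlapped. In dendritic cells the values were 241, 149, 139 and 187 CPM in minP1 mice, 220, 154 and 161 CPM in PDL1 mice, 48.6, 102, 190 and 101 CPM in minP1_PDL1 mice, and 174, 211 and 152 CPM in Control mice. Of the minP1_PDL1 mice, 3 lay below every other mouse and the fourth lay within the Control range. The log2 difference of minP1_PDL1 was −0.74 from Control (SE 0.33, edgeR adjusted p 0.924), −0.70 from minP1 (SE 0.31, edgeR adjusted p 1.00) and −0.72 from PDL1 (SE 0.33, edgeR adjusted p 1.000). Without minP1_PDL1_1 they were −0.49, −0.45 and −0.47, and without minP1_PDL1_3 they were −1.12, −1.08 and −1.10. The mean summed level of monocyte markers in this class was 4287 CPM with minP1, 4022 CPM with PDL1, 3891 CPM with minP1_PDL1 and 5001 CPM in Control, and their part in the result was not tested. In NK cells, where Csf1r is low, the values were 20.7, 21.8, 9.14 and 29.2 CPM in minP1 mice, 51.7, 7.92 and 11.4 CPM in PDL1 mice, 8.71, 0.764, 5.29 and 16.4 CPM in minP1_PDL1 mice, and 9.84, 1.59 and 5.10 CPM in Control mice. The log2 difference of PDL1 from Control there was 2.08 (SE 0.94, edgeR adjusted p 0.955) and PDL1_1 alone stood above all other mice. The interaction there was −3.44 (SE 1.23, edgeR adjusted p 1.000). Without PDL1_1 the difference was 0.83 and the interaction −2.19.

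Csf2ra, the chain that gives the GM-CSF receptor its specificity, was broad in myeloid cells. Its level was 192 ± 28.5 CPM in the monocyte-like cluster, 152 ± 32.1 CPM in neutrophils 130 ± 44.4 CPM in conventional dendritic cell-like cells and 101 ± 17.9 CPM in the C1q macrophage-like cluster, neighbours that overlapped in spread. The pooled levels of the T cell-like, NK cell-like and stromal-marker clusters lay between 12.8 and 26.6 CPM. The shares of cells with a read were 74.5% of monocytes and macrophages (50.5% when thinned to 10000 reads) at a median depth of 74680 reads, and 33.1% of NK cells (16.9% when thinned) at 27466 reads. In monocytes and macrophages Csf2ra was 138, 126, 138 and 147 CPM in minP1 mice, 119, 129 and 117 CPM in PDL1 mice, 120, 116, 114 and 127 CPM in minP1_PDL1 mice, and 147, 140 and 139 CPM in Control mice. All mice that had the antibody lay below all Control mice, by a narrow margin. The log2 difference from Control was −0.24 for PDL1 (SE 0.10, edgeR adjusted p 0.881) and −0.24 for minP1_PDL1 (SE 0.09, edgeR adjusted p 0.617), and that of minP1_PDL1 from minP1 was −0.20 (SE 0.08, edgeR adjusted p 0.657).

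Csf2rb, the shared signalling chain, was highest in the mast cell and basophil cluster at 995 CPM, with a read in 91.4% of cells. Mature dendritic cell-like cells had 661 CPM, conventional ones 526 ± 128 CPM, neutrophils 514 ± 108 CPM, the monocyte-like cluster 471 ± 59.2 CPM and plasmacytoid ones 378 ± 119 CPM, neighbours that overlapped in spread. With cells of a doublet score over 0.5 left out, Csf2rb was 1025 ± 339 CPM in neutrophils, 589 ± 135 CPM in all dendritic cells and 415 ± 88.9 CPM in all monocytes and macrophages, which puts neutrophils above both. Macrophage-like cells were lower, at 158 CPM in the C1q cluster and 196 CPM in the Mmp12 and Arg1 cluster. Both chains were read in 66.5% of monocyte-like cells, beside 65.0% for the product of the 2 shares, and in 70.3% of conventional dendritic cell-like cells, beside 68.9%. Csf2rb2 encodes a mouse beta chain used by the interleukin-3 receptor and is closely related in sequence. It followed with 768 CPM in the mast cell and basophil cluster, 343 CPM in plasmacytoid cells and 120 CPM in the monocyte-like cluster. The 2 transcripts share 193 stretches of 140 bases, or 4.05% of those in Csf2rb and 4.19% of those in Csf2rb2, so reads from those stretches could be counted under either gene. None of the other 7 members (0 stretches) shared such a sequence with another member.

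Between groups, Csf2rb in neutrophils was 419, 463, 429 and 362 CPM in minP1 mice, 620, 719 and 357 CPM in PDL1 mice, 519, 662, 543 and 597 CPM in minP1_PDL1 mice, and 490, 538 and 473 CPM in Control mice. All minP1_PDL1 mice lay above all minP1 mice, at a log2 difference of 0.53 (SE 0.22, edgeR adjusted p 1.000). In the non-immune clusters the gene was low, at 1.65, 1.47, 3.12 and 1.97 CPM in minP1 mice, 7.26, 27.2 and 42.7 CPM in PDL1 mice, 3.38, 14.1, 0.467 and 0.504 CPM in minP1_PDL1 mice, and 8.46, 19.4 and 6.08 CPM in Control mice. The log2 difference was −2.44 for minP1 against Control (SE 0.98, edgeR adjusted p 1.000) and −2.45 for minP1_PDL1 against PDL1 (SE 0.97, edgeR adjusted p 0.875), or −4.00 without minP1_PDL1_2, on levels that are a small part of those in myeloid cells. These values include cells of a doublet score over 0.5. Without such cells the level over mice in the non-immune clusters was 2.32 ± 2.35 CPM, against 9.85 ± 12.3 CPM. In the mast cell and basophil cluster Csf2rb was 916–1385 CPM in minP1 mice, 768–1495 CPM in PDL1 mice, 691–2092 CPM in minP1_PDL1 mice and 569–630 CPM in Control mice. Every treated mouse lay above every Control mouse, but a Control mouse had only 4 to 5 such cells and a treated mouse 2 to 15. Only 2 of the 14 mice had at least 10 of them, 46.2% of the cluster had a high doublet score, and no test was made there.

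Csf3r, the G-CSF receptor, was above all a neutrophil gene. The neutrophil-like cluster had 697 ± 183 CPM (SD, n = 14 mice), with a read in 87.9% of cells and 48.1% of all Csf3r reads. The monocyte-like cluster had 75.5 ± 16.1 CPM, with a read in 58.7% of cells and 18.7% of reads, and T cells and NK cells had 15.2 ± 4.88 and 15.8 ± 5.03 CPM. When cells were thinned to 10000 reads, a Csf3r read was found in 82.5% of neutrophils and 11.2% of NK cells, against 87.9% and 27.1% unthinned at median depths of 15892 and 27466 reads. Neutrophils with a low doublet score had 1607 ± 487 CPM, against 697 ± 183 CPM over all cells of the cluster.

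Over all CD45+ cells, the mice given the antibody did not overlap Control mice in Csf3r. The level was 39.0, 42.5, 56.5 and 46.6 CPM in minP1 mice, 47.3, 110 and 69.0 CPM in PDL1 mice, 63.1, 59.3, 88.3 and 80.8 CPM in minP1_PDL1 mice, and 38.2, 36.9 and 46.1 CPM in Control mice. All PDL1 and minP1_PDL1 mice stood above all Control mice, minP1_PDL1 mice also stood above all minP1 mice, and minP1 mice overlapped Control mice. The log2 difference from Control was 0.91 for PDL1 (SE 0.27, edgeR adjusted p 0.712) and 0.87 for minP1_PDL1 (SE 0.25, edgeR adjusted p 0.351), and DESeq2 called the minP1_PDL1 difference with an adjusted p of 0.0408. Without PDL1_2 the PDL1 difference was 0.52. The difference of minP1_PDL1 from minP1 was 0.66 (SE 0.23, edgeR adjusted p 0.729). In immune cells the values were 46.8, 46.7, 60.9 and 51.5 CPM in minP1 mice, 63.8, 117 and 77.7 CPM in PDL1 mice, 82.4, 66.8, 95.7 and 90.5 CPM in minP1_PDL1 mice, and 52.2, 41.6 and 60.7 CPM in Control mice. The antibody groups again lay above Control without overlap, at log2 differences of 0.74 for PDL1 (SE 0.22, edgeR adjusted p 0.743), or 0.45 without PDL1_2, and 0.71 for minP1_PDL1 (SE 0.21, edgeR adjusted p 0.400). The difference of minP1_PDL1 from minP1 was 0.70 (SE 0.19), with an adjusted p of 0.376 in edgeR and 0.0352 in DESeq2.

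Neutrophils moved with Csf3r. Of the Csf3r CPM over all cells, neutrophils supplied 20.1 with minP1, 42.8 with PDL1, 38.8 with minP1_PDL1 and 13.7 in Control, while monocytes and macrophages supplied 18.4, 21.3, 23.8 and 17.7. The neutrophil markers summed to group means of 1030, 1492, 1632 and 803 CPM in the same order. How far neutrophil numbers account for the Csf3r pattern was not tested. Within neutrophils, Csf3r was 570, 854, 645 and 854 CPM in minP1 mice, 782, 938 and 510 CPM in PDL1 mice, 792, 689, 889 and 731 CPM in minP1_PDL1 mice, and 569, 243 and 698 CPM in Control mice. The groups overlapped there, and the log2 difference of minP1_PDL1 from Control was 0.72 (SE 0.31, edgeR adjusted p 0.647), or 0.39 without Control_2. Without cells of a high doublet score that difference was −0.24. This fit left out any mouse with under 10 such neutrophils, including the Control mouse with 8, so the mice changed as well as the cells. Over all mice, the low-score means were 1591 CPM with minP1, 1694 CPM with PDL1 and 1537 CPM with minP1_PDL1. In Control the mean was 1632 CPM (774 to 2150). In monocytes and macrophages Csf3r was 37.0, 31.4, 47.1 and 32.3 CPM in minP1 mice, 38.0, 59.4 and 53.5 CPM in PDL1 mice, 35.9, 60.9, 52.7 and 53.5 CPM in minP1_PDL1 mice, and 51.1, 44.6 and 44.5 CPM in Control mice. These overlapped too, with a log2 difference of 0.46 for minP1_PDL1 against minP1 (SE 0.19, edgeR adjusted p 0.655).

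**Figure D5:**
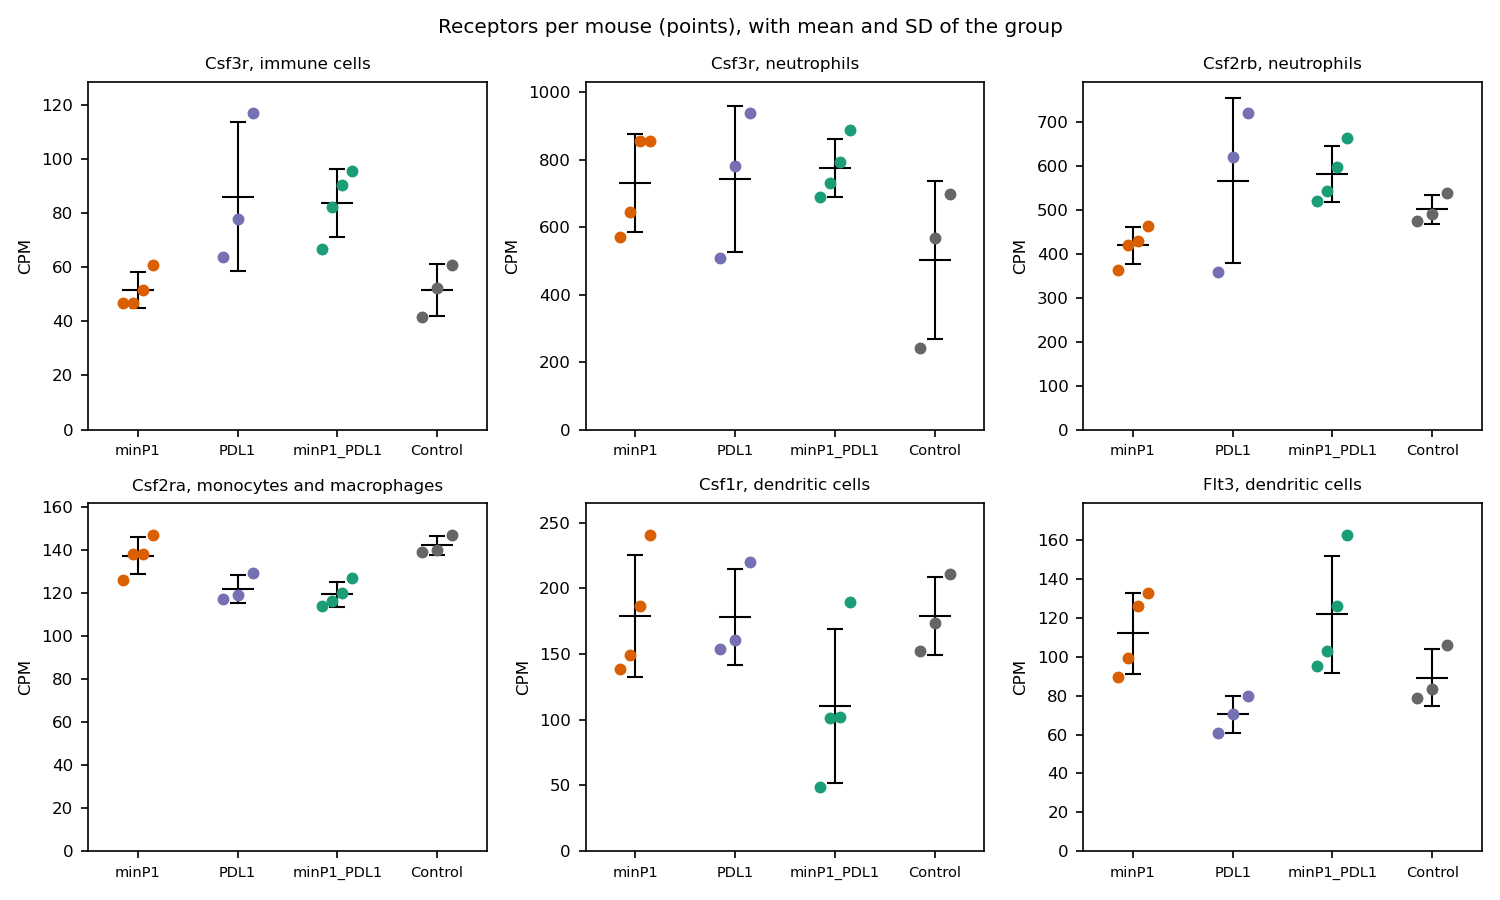
Receptor CPM per mouse (points) with the group mean and SD (bars), for Csf3r in immune cells and in neutrophils, Csf2rb in neutrophils, Csf2ra in monocytes and macrophages, and Csf1r and Flt3 in dendritic cells, with the groups minP1, PDL1, minP1_PDL1 and Control from left to right. Csf3r in immune cells separates both antibody groups from Control while Csf3r in neutrophils overlaps between groups, and Csf2ra in monocytes and macrophages spans 114 to 147 CPM in all 14 mice.

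Flt3 marked the dendritic cells, which held 81.7% of its reads. It was 209 CPM in mature dendritic cell-like cells (read in 80.6% of cells), 109 ± 28.6 CPM in plasmacytoid ones and 86.8 ± 37.6 CPM in conventional ones, and at most 7.37 CPM in any other cluster. Flt3l, which encodes its ligand, was read at 39.7 to 110 CPM in the T cell-like and NK cell-like clusters. It was not confined to them. Monocytes and macrophages, at 28.5 ± 7.26 CPM, held 39.2% of Flt3l reads, against 19.6% in T cells and 22.4% in NK cells. Both Csf1r and Flt3 were read in 12.6% of conventional dendritic cell-like cells, beside 19.3% for the product of the 2 shares, and in 18.6% of plasmacytoid ones, beside 22.1%.

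In dendritic cells Flt3 was 126, 99.7, 89.8 and 133 CPM in minP1 mice, 79.9, 70.6 and 60.8 CPM in PDL1 mice, 95.5, 126, 163 and 103 CPM in minP1_PDL1 mice, and 106, 78.7 and 83.5 CPM in Control mice. All minP1_PDL1 mice lay above all PDL1 mice, at a log2 difference of 0.76 (SE 0.25, edgeR adjusted p 1.000), and both overlapped Control mice. Over all CD45+ cells Flt3 was 11.9, 9.22, 11.3 and 9.72 CPM in minP1 mice, 8.78, 10.3 and 8.44 CPM in PDL1 mice, 7.69, 19.3, 18.4 and 10.8 CPM in minP1_PDL1 mice, and 9.08, 7.87 and 9.28 CPM in Control mice. The difference of minP1_PDL1 was 0.69 from Control (SE 0.27, edgeR adjusted p 0.417) and 0.62 from PDL1 (SE 0.27, edgeR adjusted p 0.999), and minP1_PDL1_1 lay below every other mouse. In immune cells the values were 14.4, 10.2, 12.3 and 10.8 CPM in minP1 mice, 12.1, 11.0 and 9.86 CPM in PDL1 mice, 10.2, 21.8, 20.0 and 12.2 CPM in minP1_PDL1 mice, and 12.7, 9.52 and 12.3 CPM in Control mice, with a log2 difference of 0.55 for minP1_PDL1 against PDL1 (SE 0.24, edgeR adjusted p 0.903). The makeup of the dendritic class moved as well: mature dendritic cell markers averaged 1032 CPM with minP1, 731 CPM with PDL1, 652 CPM with minP1_PDL1 and 646 CPM in Control, and plasmacytoid markers 2342, 1630, 2113 and 2500 CPM. Their part in the result was not tested.

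Counted over all tests, edgeR called none of the 8 members (0) at an adjusted p under 0.05 in any contrast, cell set or interaction. The background was low: no gene (0%) was called in all CD45+ cells or in immune cells, 0.00793% of genes were called in T cells and 0.0195% in neutrophils for minP1_PDL1 against Control, and 0% in every other class and contrast and in the interactions. At an unadjusted p under 0.05, 8 of 40 tests of members in all CD45+ cells passed (20.0%). The shares of all genes were 6.94% for minP1, 6.58% for PDL1 and 10.4% for minP1_PDL1 against Control, 6.01% for minP1_PDL1 against minP1 and 4.22% for minP1_PDL1 against PDL1. In immune cells 7 of 35 tests passed (20.0%), all of them higher in the group named first, with shares of all genes of 4.45%, 5.94%, 8.19%, 7.39% and 5.48% in the same order of contrasts. Within the 6 classes 21 of 190 tests passed (11.1%), 10 higher and 11 lower, against 5.13% of all genes. Of the interactions, 2 of 8 tests passed that level in all CD45+ cells, 0 of 7 in immune cells and 3 of 38 within classes. The shares of all genes at that level were 4.49%, 4.91% and 4.45%, and the 2 tests in all CD45+ cells were of Csf1 and of Csf3, which few cells held. The comparisons share Control mice, and tests of 1 gene in nested cell sets share reads. The smallest edgeR adjusted p of a member was 0.340, for Csf1 in immune cells. DESeq2 called 4 tests of members, of Csf1 and Csf3r, where it called 0.207% of all genes for minP1 against Control and 0.784% for minP1_PDL1 against Control in all CD45+ cells, and 0.619% for minP1_PDL1 against Control and 0.434% for minP1_PDL1 against minP1 in immune cells.

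Genes around the receptors were tested in immune cells as 6 lists chosen with earlier results of these data known, and 0 passed in edgeR in any list against Control. Other receptor chains had a median log2 difference of 0.45 for minP1_PDL1 over 5 tested genes, with Csf2rb2 at 0.45 (edgeR adjusted p 0.508) and Il5ra, the specific chain of the interleukin-5 receptor, at 0.64. In PDL1 mice Il3ra, the specific chain of the interleukin-3 receptor, was at −0.64 (edgeR adjusted p 0.814). Over the 18 signal transduction genes the medians were 0.06 for minP1, 0.04 for PDL1 and 0.07 for minP1_PDL1, beside 0.00 over all genes. A pair of phosphatases that dampen these receptors lay at small positive values, Inpp5d at 0.19, 0.28 and 0.21 in that order and Ptpn6 at 0.20 in minP1 and 0.26 in PDL1 mice. Of the 10 feedback and target genes, Dusp6, a phosphatase induced by ERK signalling, was at −0.18, −0.29 and −0.31 (edgeR adjusted p 0.515 for minP1_PDL1). Among the 12 lineage factors, Cebpb was at 0.36 and Irf8 at −0.22 for minP1_PDL1 (edgeR adjusted p 0.486 and 0.498), and the list's median was 0.12. Among the 9 lymphocyte cytokines, Ccl3 was at 0.48 for minP1_PDL1 (edgeR adjusted p 0.307) and Ccl4 at 0.49 for PDL1 (edgeR adjusted p 0.578). The 5 other ligands tested had medians of −0.12, −0.19 and −0.18, with Flt3l at −0.11 in PDL1 and −0.18 in minP1_PDL1 mice.

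Across the 23 clusters, the genes whose level followed a member most closely were found among 11169 genes by Pearson's r of log2(CPM + 1), a description over clusters that share libraries and depth. Csf1r was closest to Clec12a (0.95), Tgfbi (0.94) and Clec4a2 (0.94). Csf2ra was closest to Pira7 (0.95), Sirpa (0.94) and Gm21188 (0.94), and Csf2rb to Prkcd (0.95), Pirb (0.94) and Csf2rb2 (0.92). Csf3r was closest to Ccrl2 (0.87), Clec4e (0.84) and Mrgpra2a (0.83), and Flt3 to Syngr2 (0.91), Gpr4 (0.89) and Ccl17 (0.88). The ligands were followed less closely, Csf1 by Meis2 (0.73), Flot1 (0.71) and Klf5 (0.70), and Csf2 by Prrt1 (0.71), Tnfsf11 (0.71) and Rsbn1 (0.70).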

How the data were processed

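Single cells were measured by whole-transcriptome sequencing on the BD Rhapsody platform, with mice told apart by hashtags, per the labels. Per the submitters' processing notes, the tools were cutadapt 2.10, Bowtie2 2.3.4.1 and Seurat 2.3.4, and the build was mm10. The deposited table holds whole-number counts per gene and cell. These are read counts rather than collapsed molecules to judge by their values (median 10.0 among non-zero entries, 18.0% of them equal to 1), so intervals cover counting error only and amplification can inflate a single cell. Of 8262 barcodes, 8115 belonged to a mouse, 147 were not used, and 383 (4.72%) with over 25% mitochondrial counts (36 genes) were removed; the fewest genes in a kept cell was 201, above the minimum of 200. The 7732 cells kept stand beside the 7613 the study states.

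Cells were clustered with scanpy 1.11.5 and leidenalg 0.10.2 (2000 variable genes without the 8 members, 30 components, 20 neighbours, resolution 1.0), under Python 3.11.15. A cluster took a name from at least 3 markers of a list, each 2-fold higher and in 25% of its cells, a rule set after the clusters were seen. Doublets across hashtags are the authors' calls and were left out; a simulated-doublet score cut at 0.5 marked 26.4% of kept cells and 72.2% of simulated doublets, and those cells were kept except in a named alternative. Differences between clusters are a description, since clusters come from the same cells. Counts were summed per mouse and cell set (at least 10 cells) and tested with edgeR 4.0.16 under R 4.3.3 by its quasi-likelihood test (TMM, filterByExpr, 4 groups in 1 fit, 2-sided, Benjamini-Hochberg over all genes, threshold 0.05), checked on simulated data. Members left out by the filter had an exact permutation test. Per-mouse values are given for a member where it is highest and for every test with an unadjusted p under 0.05; of each list, the genes with the 2 smallest p are given. Alternatives were DESeq2 1.42.0, RLE size factors, no gene or cell filter, the replicate number as a block, each mouse left out, at least 20 cells, resolution 0.5, members among the variable genes, no high doublet scores, and thinning to 10000 reads. Replicates are separate mice; the labels speak of separate runs but give none per mouse, so a run cannot be told apart from a group. The members and lists were chosen with earlier results of these data known.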

Additional observations from a re-analysis of the deposited data

Results flagged for a closer look

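Csf2 in mouse minP1_4 stood apart from the other 3 minP1 mice. Its level was 35.1 CPM over all CD45+ cells, where the nearest other minP1 mouse had 7.46 CPM and the gap was 0.883 of the group's range. In immune cells it was 38.2 CPM, with the nearest at 7.23 CPM and a gap of 0.882 of the range; both gaps pass the 95% critical value of the Dixon test for 4 samples. Without the 1 cell with most Csf2 reads the mouse had 7.33 CPM over all cells and 7.19 CPM in immune cells. In all, 44 groups of 4 mice were looked at and 2 stood out in this way, and chance gives about 1 in 20 groups.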

How the results depend on the processing

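Of 39 log2 differences, those of members other than Csf3 with an unadjusted p under 0.05 in edgeR, 834 values under an alternative setting were counted. Values without an adjusted p were left out. Of these, 828 kept their direction and their side of the threshold in edgeR's terms, 4 passed the threshold and 2 turned round. Since edgeR had called none of the 39, the first count means only the same sign and still not called. It is no measure of how far the sizes held. DESeq2 called 2 members in all CD45+ cells and 2 in immune cells, where edgeR called 0. Those 4 were Csf1 at −0.76 for minP1 (adjusted p 0.00539) and Csf3r at 0.87 for minP1_PDL1 (adjusted p 0.0408) in all cells, and Csf1 at 0.90 for minP1_PDL1 against Control (adjusted p 0.0272) and Csf3r at 0.71 for minP1_PDL1 against minP1 (adjusted p 0.0352) in immune cells; the cause was not tested. Without high doublet scores, Csf3r in neutrophils turned to −0.24 for minP1_PDL1 and Csf2 in monocytes and macrophages to 2.16 for PDL1, both against Control. The Csf2 difference was not called. The Csf3r fit also left out the Control mouse with 8 such neutrophils. With no mouse left out, the low-score means of Csf3r were 1537 CPM with minP1_PDL1 and 1632 CPM in Control. The parts of the removed cells and of the mouse left out were not tested. The same setting moved the level over mice of Csf1r in monocytes and macrophages to 481 CPM, Csf2ra in neutrophils to 273 CPM, Csf3r in neutrophils to 1607 CPM and Flt3 in dendritic cells to 153 CPM, and likewise Csf1 in neutrophils to 850 CPM, Csf2rb in neutrophils to 1025 CPM and Csf2 in monocytes and macrophages to 1.46 CPM, against 412, 514 and 8.91 CPM with all cells.

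With the replicate number as a block, edgeR called 0 members. The numbers do not pair the mice: over 19 pairs with the same number, the correlation of deviations from the group mean was −0.0686 to 0.181 (median 0.0124) in all cells and −0.0680 to 0.0479 in immune cells. Leaving out the cell with most Csf2 reads, an alternative chosen after seeing the data, gave 7.33, 7.19 and 6.14 CPM for minP1_4 in all cells, immune cells, and monocytes and macrophages. The groups hold 3 or 4 mice and the poorest mouse gave 14 neutrophils, which limits precision.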

Other observations

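The basophil-gene cells, in which Csf1 was highest per cell, were too few for a test between groups. There were 9 in minP1 mice, with a pooled Csf1 level of 4826 CPM, 4 in PDL1 mice with 3176 CPM, 7 in minP1_PDL1 mice with 5595 CPM and 2 in Control mice with 454 CPM. The mast-gene cells of the same cluster numbered 26, 16, 18 and 11 in that order, with 78.4, 316, 379 and 275 CPM of Csf1.

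Among other growth factor ligands, Kitl, which encodes the mast cell growth factor, was highest in the epithelial-marker cluster at 145 CPM, and Il3, a basophil and mast cell growth factor, reached 29.4 CPM in the mast cell and basophil cluster, from 3 cells.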
